A study of Mus musculus with 24 samples.

Results

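Cytochrome c oxidase, complex IV of the respiratory chain, was followed through 10 of its nuclear genes, which are 10 of the 14912 genes in the deposited table. They were chosen by symbol as *Cox4i1*, *Cox4i2*, *Cox5a*, *Cox5b*, *Cox6a1*, *Cox6a2*, *Cox7a1*, *Cox7a2*, *Cox8a* and *Cox8b*. RNA-seq was made from whole left ventricles of male C57BL/6J mice with the genotype WT, whose age is not given in the sources used here. In the hypertensive-LVH group, 12 mice received angiotensin II (ANG II), a hormone that raises blood pressure, at 1500 ng/kg/min for 7 days from an osmotic pump under the skin. The control group of 12 mice received saline in the same way, and all hearts were flushed with saline before the ventricle was taken. The comparison asked how the transcripts of complex IV differ between ventricles with pressure-induced hypertrophy (LVH) and control ventricles.

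Complex IV is the last enzyme of the respiratory chain and passes electrons from cytochrome c to oxygen while it pumps protons across the inner mitochondrial membrane. Its catalytic core is encoded by the mitochondrial genome, and the subunits around the core are encoded in the nucleus. Several nuclear subunits exist in alternative forms. *Cox6a2*, *Cox7a1* and *Cox8b* encode the forms of heart and skeletal muscle, while *Cox6a1*, *Cox7a2* and *Cox8a* encode the forms found in most tissues. *Cox4i1* is the common form of subunit 4, and *Cox4i2* is its alternative form, best known from lung and from the cells that wrap small vessels. *Cox5a* and *Cox5b* encode subunits with 1 form each. The core genes of the mitochondrial genome were not analysed here.

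Heart muscle as the source was borne out by the level of heart muscle genes, which do not tell ventricle from atrium. *Myl7*, a myosin light chain of the atria, had a log2 fold change of 1.03 ± 1.40 (SE, limma), a wide spread between samples. The part of atrial tissue in the samples was not tested. The mean of *Tnnt2*, cardiac troponin T, was 5603 FPKM in the hypertensive-LVH group and 5876 FPKM in the control group, and *Myh6*, the adult mouse ventricular myosin heavy chain, was at 6769 and 7906 FPKM. FPKM is the number of fragments scaled by the length of the transcript and by all mapped fragments of the sample. It allows levels of different genes to be set side by side as far as this scaling by length holds, which was not tested. The annotated coding transcripts were short, with 360 bases for *Cox8b* and 393 to 485 for *Cox7a1*, against 550 for *Cox8a* and 659 for *Cox7a2*. The deposited values were FPKM that had been adjusted gene by gene within 4 sets of samples, namely samples 1 to 3, 4 to 6, 7 to 9 and 10 to 12 of each group. In the model used below to recover the earlier values, each set was shifted and scaled around a group difference that the 4 sets share. By this model, tests and overlaps on the deposited values rest on an adjustment that was not blind to the groups. Of all values, 0.766% were negative, and none of these belonged to the 10 genes. The sum of a sample's values was 460715 to 515185 in the hypertensive-LVH group and 482319 to 567727 in the control group. 1 protocol among the labels names CRC cells as the source of the RNA, while all other labels name the left ventricle. The number of fragments behind a value is unknown, since no counts were used here. Control sample 3 had the highest sum of its group and also the highest value of its group for 9 of the 10 genes. ANG II sample 7 had the highest sum of its group and the highest value for 8 of the 10 genes.

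Of the 10 genes, 7 fell in the hypertensive-LVH group and 0 rose, at an adjusted p under 0.05. Among all 14026 genes tested with limma, 12.6% fell and 20.9% rose by the same test. The 7 were *Cox4i1*, *Cox5a*, *Cox5b*, *Cox6a2*, *Cox7a1*, *Cox7a2* and *Cox8b*. *Cox4i2*, *Cox6a1* and *Cox8a* did not pass. The median log2 fold change of the 10 genes, on log2(FPKM + 1), was -0.42, against 0.05 for all genes tested. Together the 10 genes held 2.18% ± 0.217 (SD, n = 12) of the summed values of a control ventricle and 1.60% ± 0.223 (SD, n = 12) of those of an ANG II-infused ventricle. In RNA from whole ventricles, fewer cells of a type and less RNA per cell cannot be told apart. The study's criteria also ask for an absolute log fold change over 0.5, with no base given, which was read here as log2. *Cox7a1* and *Cox8b* were past both criteria, as were 1.40% of all genes in that direction. *Cox5b* and *Cox4i1* fell just short of this limit, both with a log2 fold change of -0.48.

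**Figure D1:**
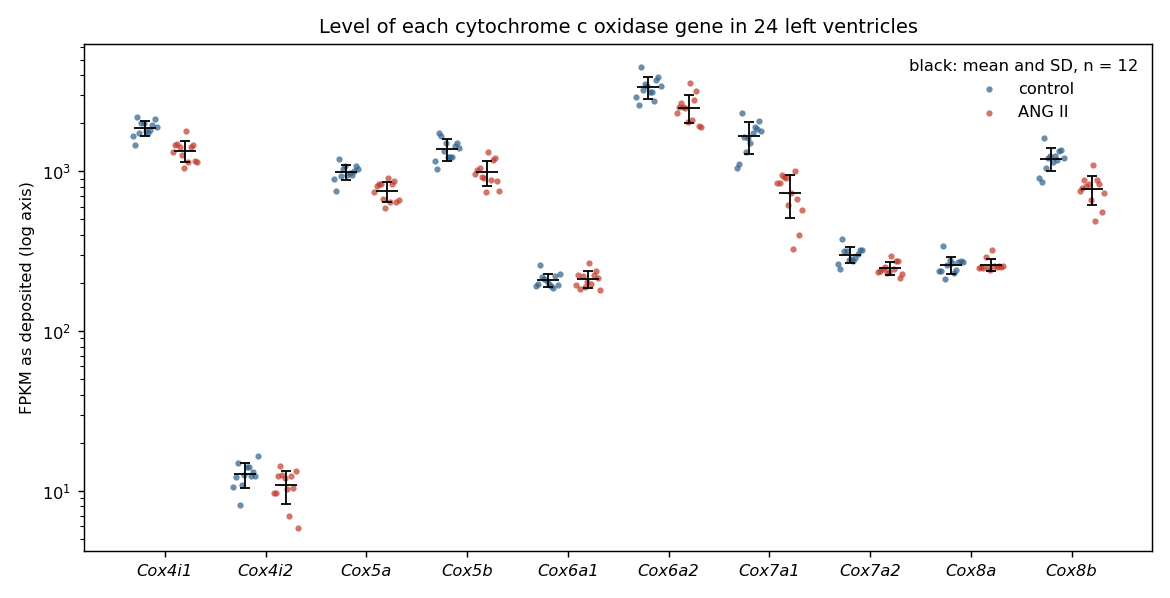
FPKM as deposited (log axis) of each of the 10 genes in 12 control (blue) and 12 ANG II-infused (red) left ventricles, 1 point per sample, with the mean and SD in black. The *Cox7a1* points of the 2 groups do not overlap, *Cox6a1* and *Cox8a* have nearly the same mean in both groups, and *Cox4i2* lies below all other genes at 5.86 to 16.6 FPKM.

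The muscle forms and their partners are encoded in separate genes. A stretch of DNA upstream of the start is shown for *Cox7a1*, *Cox7a2*, *Cox8b* and *Cox8a* as a description. Whether this DNA bears on the ANG II response was not tested. In GENCODE vM21, on build GRCm38, the 3 muscle forms lie on chromosome 7, far from each other. *Cox7a1* spans chr7:30184144-30186078 on the plus strand, *Cox8b* chr7:140898945-140900446 on the minus strand and *Cox6a2* chr7:128205435-128206387 on the minus strand. *Cox6a2* overlaps *Itgad* on the other strand, an integrin gene with a mean of 0.135 FPKM in the hypertensive-LVH group and 0.106 FPKM in the control group. The other genes lie on chromosomes 1 (*Cox5b*), 2 (*Cox4i2*), 5 (*Cox6a1*), 8 (*Cox4i1*), 9 (*Cox5a* and *Cox7a2*) and 19 (*Cox8a*), and all 10 are protein-coding. *Cox4i1* also overlaps *Emc8*, at 5.84 and 6.04 FPKM, and whether the fragments were counted by strand is not given in the sources used here. RefSeq promoters of GRCm38.p6 matched 7 of the 10 genes and not *Cox4i1*, *Cox4i2* and *Cox6a2*. The stretches below run 5′ to 3′ from 178 to 29 bases before the RefSeq start. For *Cox7a1* and *Cox7a2* this start lies inside the gene as GENCODE places it. The stretches are at chr7:30183993-30184142 (plus strand) for *Cox7a1*, chr9:79759882-79760031 (minus) for *Cox7a2*, chr7:140900475-140900624 (minus) for *Cox8b* and chr19:7217645-7217794 (minus) for *Cox8a*. Capitals mark CpG, a C followed by a G.
Cox7a1: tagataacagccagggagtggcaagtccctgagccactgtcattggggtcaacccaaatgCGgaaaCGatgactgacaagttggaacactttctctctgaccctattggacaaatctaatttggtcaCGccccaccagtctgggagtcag
Cox7a2: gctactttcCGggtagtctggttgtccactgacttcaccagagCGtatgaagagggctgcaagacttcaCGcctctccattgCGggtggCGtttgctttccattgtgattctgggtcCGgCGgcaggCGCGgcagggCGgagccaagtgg
Cox8b: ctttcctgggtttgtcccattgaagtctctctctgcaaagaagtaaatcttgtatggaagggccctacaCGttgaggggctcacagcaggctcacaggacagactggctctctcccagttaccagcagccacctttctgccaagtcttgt
Cox8a: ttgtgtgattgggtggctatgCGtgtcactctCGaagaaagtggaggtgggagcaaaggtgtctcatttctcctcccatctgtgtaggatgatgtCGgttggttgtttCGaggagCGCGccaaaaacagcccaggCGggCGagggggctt
In these 150 bases, CpG was found 3 times in *Cox7a1* and 1 time in *Cox8b*, against 10 times in *Cox7a2* and 8 times in *Cox8a*. Over the 250 bases before the RefSeq start, *Cox8b* held 1 CpG and *Cox7a1* 4, while the median of 32851 promoters was 6. For *Cox5b*, *Cox6a1*, *Cox7a1* and *Cox7a2* these bases reach into the gene as GENCODE places it. *Cox8a* held 11, *Cox7a2* 14, *Cox5b* 22 and *Cox5a* and *Cox6a1* 26 each. The share of all promoters with fewer CpG was 7.87% for *Cox8b* and 37.8% for *Cox7a1*, and 64.4% to 90.4% for the other 5 genes. Short motifs were searched on both strands of the 250 bases. CANNTG, the E-box, was found in *Cox5b*, *Cox7a1*, *Cox7a2*, *Cox8a* and *Cox8b* and in 66.2% of all promoters. The core motif of NRF1 and CCGGAAG, bound by factors of the ETS family, were found in *Cox6a1* (3.74% and 6.91% of all promoters), and the core motif of MEF2 was found in *Cox5b* (3.20%). AAGGTCA, a site of the ERR receptors, and AAGATGG, a site of YY1, were in 0 of the 7 windows and in 4.08% and 4.49% of all promoters.

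The ubiquitous forms are described first. *Cox6a1* was at 186 to 257 FPKM in the control group, with a median of 202, and with ANG II at 180 to 267 FPKM, median 210. The ranges overlapped almost completely. Its log2 fold change was 0.02 ± 0.0612 (SE), with a 95% interval of -0.11 to 0.15 and an adjusted p of 0.822 (limma). *Cox8a* was at 211 to 342 FPKM, median 262, in the control group and at 242 to 320 FPKM, median 253, in the hypertensive-LVH group. For *Cox8a*, 10 of 12 ANG II samples lay below the control median and 0 below the lowest control. Its log2 fold change was 0.01 ± 0.0604 (SE), with an interval of -0.11 to 0.14 and an adjusted p of 0.897. The sign of both differences changed with the scaling: under median-ratio scaling they were -0.02 for *Cox6a1* and -0.03 for *Cox8a*. *Cox7a2* differed from these genes in that it fell. It was at 246 to 377 FPKM, median 294, in the control group and at 216 to 296 FPKM, median 241, in the hypertensive-LVH group, where 8 of 12 samples lay below the lowest control. Its log2 fold change was -0.27 ± 0.0598 (SE), with an adjusted p of 0.00128.

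Among the muscle forms, *Cox7a1* had the largest log2 fold change of the 10 genes. Its control samples ranged from 1046 to 2315 FPKM with a median of 1684, and its ANG II samples from 326 to 1011 FPKM with a median of 788. All 12 ANG II samples lay below all 12 controls, an order seen in 0.485% of all genes tested, and in no other of the 10 genes. Within samples 1 to 3 the groups overlapped before the adjustment of the deposited values was made. The mean dropped from 1656 ± 372 to 733 ± 220 FPKM (SD, n = 12), a change of -55.8%. The log2 fold change was -1.21 ± 0.168 (SE), with an adjusted p of 1.18e-05 (limma). ANG II samples 8 and 11 were lowest, at 326 and 402 FPKM. Control samples 1 and 2 were the lowest controls, at 1046 and 1110 FPKM, while control sample 3 of the same set was the highest.

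*Cox8b* ranged from 862 to 1606 FPKM in the control group, with a median of 1208, and after ANG II from 491 to 1091 FPKM, with a median of 798. The groups overlapped, with 9 of 12 ANG II samples below the lowest control and all 12 below the control median. The log2 fold change was -0.63 ± 0.109 (SE), with an adjusted p of 0.000127. *Cox6a2* was the most abundant of the 10 genes in both groups, at 2586 to 4493 FPKM in controls, median 3317, and at 1906 to 3580 FPKM, median 2506, after ANG II. Its groups overlapped, with 8 of 12 ANG II samples below the lowest control. The log2 fold change was -0.43 ± 0.104 (SE), with an adjusted p of 0.00280.

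**Figure D2:**
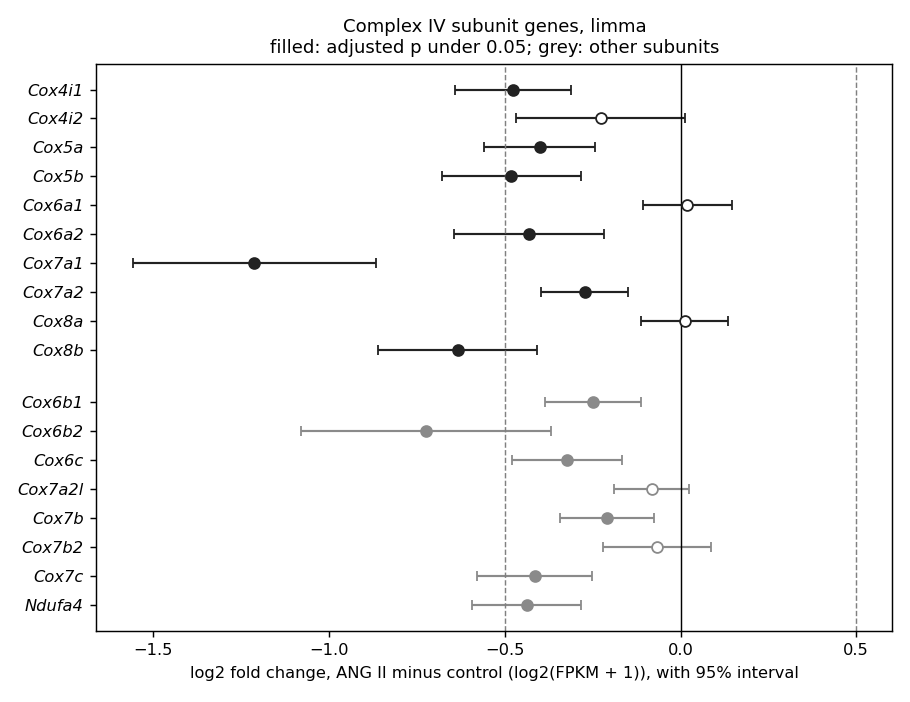
Log2 fold change (ANG II minus control, on log2(FPKM + 1)) with its 95% interval from limma for the 10 genes (black) and 8 other complex IV subunit genes (grey). Filled points passed an adjusted p of 0.05, dashed lines mark 0.5 in each direction, and *Cox7a1* at -1.21 lies farthest from 0 while *Cox6a1* and *Cox8a* lie at 0.02 and 0.01.

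The single-form subunits and *Cox4i1* fell by similar amounts. *Cox4i1* was at 1450 to 2201 FPKM in the control group, median 1842, and at 1052 to 1794 FPKM in the hypertensive-LVH group, median 1366. *Cox5a* was at 749 to 1199 FPKM, median 990, against 585 to 905 FPKM, median 780. *Cox5b* was at 1037 to 1748 FPKM, median 1369, against 745 to 1322 FPKM, median 943. In each of these 3 genes the groups overlapped, all 12 ANG II samples lay below the control median, and 8, 6 and 8 of them lay below the lowest control. The log2 fold changes were -0.48 ± 0.0801 for *Cox4i1*, -0.40 ± 0.0771 for *Cox5a* and -0.48 ± 0.0955 for *Cox5b* (SE), with adjusted p-values of 9.52e-05, 0.000388 and 0.000519. *Cox4i2* was at 8.19 to 16.6 FPKM in the control group, median 12.5, and at 5.86 to 14.2 FPKM, median 11.2, in the hypertensive-LVH group. Its log2 fold change of -0.23 ± 0.116 (SE) had an interval of -0.47 to 0.01 and did not pass the test, with an adjusted p of 0.130.

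The order of the mean levels differed between the groups mainly at *Cox7a1*. In controls it ran *Cox6a2*, *Cox4i1*, *Cox7a1*, *Cox5b*, *Cox8b*, *Cox5a*, *Cox7a2*, *Cox8a*, *Cox6a1* and *Cox4i2*. In the hypertensive-LVH group *Cox7a1* stood at position 6, behind *Cox5a*. Ranges of neighbours overlapped between positions 2 and 6 and between positions 7 and 9 in both groups, so the order within these stretches is not fixed beyond the spread. In both groups *Cox6a2* was above all other genes with no overlap, the genes at positions 7 to 9 were below those before them with no overlap, and *Cox4i2* was below all with no overlap.

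The share of the muscle form was compared within each sample. In FPKM with no further adjustment, this cancels any scaling of the whole sample. The deposited values were adjusted by gene and set, so such a scaling need not cancel in full here. *Cox7a1* made up 79.8% to 86.9% of the summed FPKM of *Cox7a1* and *Cox7a2* in controls, with a median of 84.9%, and 57.1% to 79.5% after ANG II, with a median of 75.2%. The 2 groups did not overlap, although the lowest control and the highest ANG II sample were close. The log2 ratio of *Cox7a1* to *Cox7a2* was lower by a difference of -0.94 ± 0.158 (SE), with a two-sided permutation p of 1e-05, the smallest that the resamples can give, and an adjusted p of 1.33e-05 over 4 pairs. *Cox8b* made up 78.4% to 84.4% of *Cox8b* and *Cox8a* in controls, median 82.4%, and 65.6% to 78.0%, median 75.5%, after ANG II. These groups did not overlap either, and the log2 ratio differed by -0.65 ± 0.0923 (SE). *Cox6a2* made up 92.9% to 95.3% of *Cox6a2* and *Cox6a1* in controls, median 94.2%, and 89.9% to 93.6%, median 92.1%, after ANG II. Here the groups overlapped, with 8 of 12 ANG II samples below the lowest control, and the log2 ratio differed by -0.45 ± 0.0747 (SE). The permutation p and adjusted p of both pairs were the same as for *Cox7a1*. Ratios before the adjustment of the deposited values could not be computed. In all 24 samples the muscle form was the more abundant one of each of these 3 pairs. *Cox4i2* made up 0.469% to 0.875% of *Cox4i1* and *Cox4i2* in controls and 0.508% to 1.13% after ANG II, and its log2 ratio difference of 0.25 ± 0.127 (SE) did not pass (permutation p = 0.0603) and was 0.03 without samples 4 to 6 (permutation p = 0.823).

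**Figure D3:**
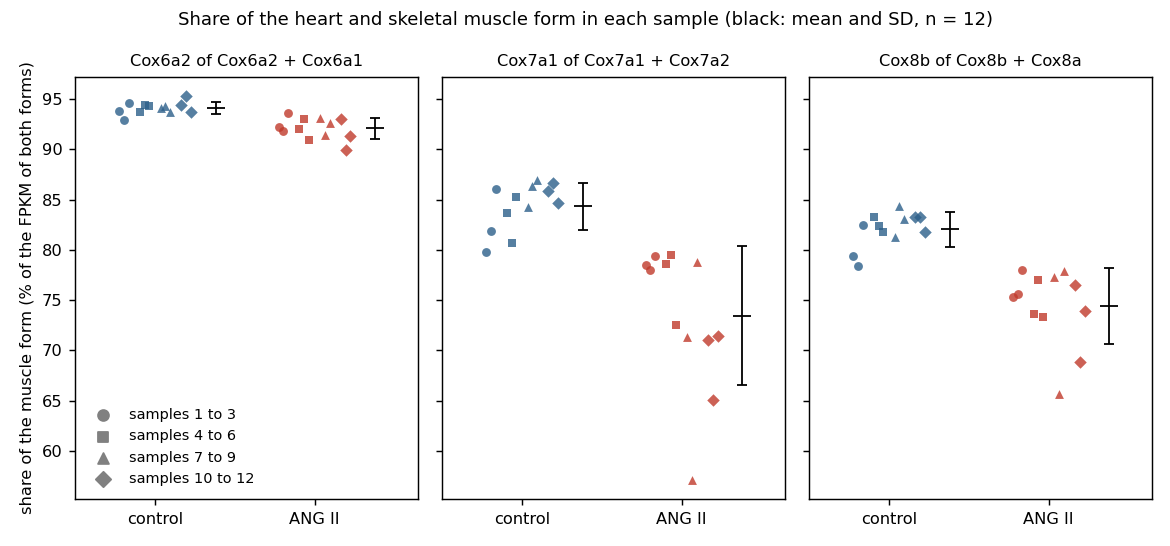
Share of the muscle form in the summed FPKM of both forms (%) for each sample, in control (blue) and ANG II-infused (red) ventricles, with marker shapes for the 4 sets of samples and the mean and SD in black. In the *Cox7a1* and *Cox8b* panels all ANG II points lie below all control points (highest ANG II 79.5% and 78.0%, lowest control 79.8% and 78.4%), and in the *Cox6a2* panel the groups overlap.

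In the deposited values, the shift of the 3 pairs was seen in each of the 4 sets. The sets are not separate repeats of it, since the adjustment kept a group difference that they share. In the order of samples 1 to 3, 4 to 6, 7 to 9 and 10 to 12, the log2 ratio of *Cox7a1* to *Cox7a2* differed by -0.38, -0.57, -1.39 and -1.42. For *Cox8b* to *Cox8a* the differences were -0.32, -0.67, -0.77 and -0.82, and for *Cox6a2* to *Cox6a1* they were -0.28, -0.48, -0.37 and -0.67. *Cox4i2* to *Cox4i1* was higher in 3 sets and lower in 1, with values from -0.13 to 0.91. When limma tested whether the ANG II effect on a gene differed between the sets, none of the 10 genes passed, with the lowest adjusted p at 0.245 for *Cox4i2* and 0.250 for *Cox7a1* and 0 of 10 at an unadjusted p under 0.05. By unadjusted p, *Cox5b* was under 0.05 with median-ratio scaling (limma, p = 0.0344, adjusted p = 0.197) and *Cox7a1* with quantile normalization (limma, p = 0.0198, adjusted p = 0.160). Among all genes tested 7.49% passed. This test also used the deposited values, so it cannot tell how far the sets agreed before the adjustment.

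The differences within a set could also be recovered as they were before the adjustment of the deposited values, from the spacing of each gene's values. This was possible for all 10 genes and for 11711 of the 14026 genes tested. An exact permutation test with labels exchanged only within the sets, adjusted over the recovered genes, again called *Cox4i1*, *Cox5a*, *Cox5b*, *Cox6a2*, *Cox7a1*, *Cox7a2* and *Cox8b* lower, as it did 12.0% of all recovered genes. *Cox7a1* was lower by a mean difference of -882 FPKM, which is -53.3% of the control mean (exact adjusted p = 0.00217). For these percentages the control mean is that of the deposited values, since the level before the adjustment is unknown. *Cox8b* differed by -404 FPKM or -33.8% (exact adjusted p = 0.00293), *Cox6a2* by -896 FPKM or -26.7% (0.00852) and *Cox7a2* by -55.1 FPKM or -18.4% (0.00331). *Cox4i1* differed by -518 FPKM, *Cox5a* by -232 FPKM and *Cox5b* by -404 FPKM, or -27.8%, -23.5% and -29.4% of the control mean. The mean of each of the 7 genes was lower after ANG II in each of the 4 sets. In samples 1 to 3, without control sample 3, this held for *Cox4i1*, *Cox5b*, *Cox6a2* and *Cox7a2*, by smaller differences, and not for *Cox5a*, *Cox7a1* and *Cox8b*. *Cox6a1* differed by 0.336% and *Cox8a* by -1.67% of the control mean, and both had sets in which the mean of the ANG II samples was higher.

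The first set was less clear than the others. Before the adjustment, all 3 ANG II samples lay below all 3 controls of their set for *Cox7a1* and *Cox8b* in samples 4 to 6, 7 to 9 and 10 to 12. The same held for *Cox4i1*, *Cox5a*, *Cox5b* and *Cox7a2*. *Cox6a2* differed only in samples 7 to 9, with 2 of 3 ANG II samples below the lowest control. The share of all genes with this order was not computed. In samples 1 to 3, 0 of 3 ANG II samples lay below the lowest control for *Cox7a1* or *Cox8b*, and their lower mean rested on control sample 3. Without it, the ANG II mean of this set was higher by 73.7 FPKM for *Cox7a1*, 55.3 FPKM for *Cox8b* and 55.3 FPKM for *Cox5a*, and the differences of the other genes that fell were -30.3 FPKM for *Cox4i1*, -20.0 FPKM for *Cox6a2*, -1.80 FPKM for *Cox5b* and -0.122 FPKM for *Cox7a2*. The absence of overlap in *Cox7a1* as deposited therefore did not hold within this set before the adjustment. Without control sample 3 the mean difference was -722 FPKM for *Cox7a1* (exact p = 0.000188), -308 FPKM for *Cox8b* (exact p = 0.00045) and -679 FPKM for *Cox6a2* (exact p = 0.00276) over all 4 sets, and the exact p of the other 4 genes that fell was at most 0.00206. Without samples 1 to 3 of both groups the difference of *Cox7a1* was -987 FPKM, with an exact p of 0.00025, the smallest this test allows.

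**Figure D4:**
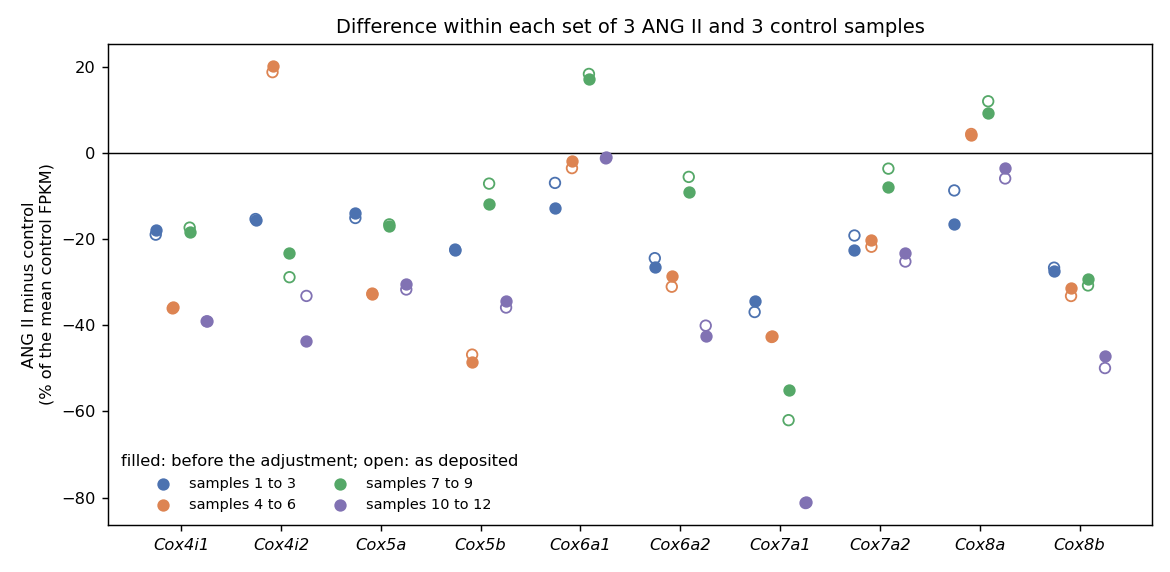
ANG II minus control within each set of 3 ANG II and 3 control samples, before the adjustment (filled) and as deposited (open). Both are given as a percentage of the gene's mean control FPKM as deposited. *Cox7a1* runs from -34.3% in samples 1 to 3 to -81.1% in samples 10 to 12 before the adjustment, and *Cox6a1* and *Cox8a* lie on both sides of 0.

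Across samples the muscle forms varied together within the groups. After the group means were removed, log2 values of *Cox7a1* and *Cox8b* had a Pearson's r of 0.85 over 24 samples (permutation p = 1e-05) and a Spearman's rho of 0.79 (permutation p = 2e-05), and r was 0.74 without the 2 samples farthest from the median and 0.89 after the set means were also removed. *Cox6a2* and *Cox8b* had an r of 0.84 (permutation p = 1e-05) and a rho of 0.89 (1e-05), with an r of 0.76 without the 2 farthest samples and 0.88 within sets. *Cox7a1* and *Cox6a2* were less closely related, with an r of 0.59 (permutation p = 0.00217), a rho of 0.60 (0.002), and 0.53 and 0.73 in the other forms. Each muscle form also varied with its partner, with an r of 0.70 for *Cox6a2* and *Cox6a1*, 0.59 for *Cox8b* and *Cox8a* and 0.48 for *Cox7a1* and *Cox7a2*. For the partners rho was 0.59, 0.48 and 0.49. The permutation p-values of these 3 were 0.00014, 0.00294 and 0.0164 for r and 0.0025, 0.0182 and 0.0165 for rho, the r without the 2 farthest samples was 0.50, 0.66 and 0.52, and within sets it was 0.70, 0.66 and 0.70. All 6 relations passed adjustment over the 6, with the largest adjusted p at 0.0164 for r and 0.0182 for rho. The sum of all values, which was highest in the same samples as most of the genes, is shared by both members of each pair, and its part in these relations was not tested.

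The genes whose levels followed the members most closely over the 24 samples, among 11448 genes with a mean of at least 1 FPKM, are given as a description. For *Cox7a1* they were *Ndufb4* (Pearson's r of 0.96), *Mb* (0.96), *Ndufab1* (0.95), *Dap3* (0.95) and *Oxld1* (0.95). For *Cox8b* they were *Ndufb4* (0.97), *Ndufa12* (0.97), *Ndufs7* (0.96), *Atp5c1* (0.96) and *Pam16* (0.95). For *Cox6a2* they were *Atp5g2* (0.97), *Clpp* (0.96), *Ndufb11* (0.96), *Atp5j2* (0.96) and *Ndufa7* (0.96). *Cox4i2* had no gene as close, with *Telo2* (0.87), *Tcf15* (0.86), *Rnaseh2a* (0.85), *Tmem39b* (0.83) and *Snap47* (0.83) at the head. These values include the difference between the groups. With the group means removed they were 0.80 to 0.95.

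The rest of complex IV was described with lists of its other genes. Of 8 other subunit genes tested, 6 fell and 0 rose, with a median log2 fold change of -0.29. *Cox6b2*, the form of subunit 6b best known from testis, fell by 0.72 on the log2 scale from 3.60 ± 1.10 to 1.82 ± 0.783 FPKM (SD, n = 12). *Ndufa4*, a subunit once assigned to complex I, fell by 0.44 ± 0.0755 (SE) with an adjusted p of 0.000127 (limma), and *Cox7c* fell by 0.42 ± 0.0797 (SE) with an adjusted p of 0.000379. Of 27 genes for the assembly of the complex, 16 fell and 0 rose, and the median was -0.18. *Smim20*, which acts in the assembly of the core subunit COX1, fell from 52.9 ± 6.87 to 33.2 ± 4.88 FPKM (SD, n = 12), a log2 fold change of -0.66 ± 0.0746 (SE) with an adjusted p of 1.64e-06. *Cmc2* had a log2 fold change of -0.39 and *Taco1*, an activator of COX1 translation, of -0.38, with adjusted p-values of 8.61e-05 and 0.000146. Of 4 genes listed under cytochrome c, 2 fell and 0 rose. *Cycs*, somatic cytochrome c, fell by 0.17 on the log2 scale, with an adjusted p of 0.00884 (limma). *Cyc1*, which encodes cytochrome c1 of complex III and not cytochrome c, fell by 0.41, with an adjusted p of 0.000310.

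Markers of the cell types in a ventricle moved as well. Of 16 cardiomyocyte markers, 8 fell, 2 rose and 6 did not pass, and their median log2 fold change was -0.27. The fall was seen in *Tnni3* (-0.63), *Mb* (-0.59), *Ckm* (-0.56) and *Myl2* (-0.50), and the rise in *Mybpc3* (0.21) and *Casq2* (0.14). The summed FPKM of the 16 genes was 50946 to 74932 in the hypertensive-LVH group and 66732 to 88667 in the control group. All 8 macrophage markers rose, with a median of 0.63, among them *Cd68* (0.92), *C1qb* (0.74), *C1qa* (0.65), *Fcgr1* (0.65) and *C1qc* (0.61), and their sum was 237 to 701 FPKM against 172 to 378. Of 8 fibroblast markers, *Col1a1* (2.77), *Col3a1* (2.63), *Col1a2* (2.48) and *Lum* (1.15) rose and 0 fell, and the sum was 708 to 2639 FPKM against 142 to 1017. The part of these cell types in the lower complex IV values was not tested.

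*Cox4i2* was set beside markers of the cells around vessels. Of 12 pericyte markers, 5 fell and 2 rose, with a median of 0.04, and the summed level was 317 to 427 FPKM in the hypertensive-LVH group and 322 to 409 FPKM in the control group. *Vtn* (-0.76), *Kcnj8* (-0.58) and *Colec11* (-0.44) fell most, and *Mcam* (0.59) and *Cspg4* (0.34) rose. *Rgs5*, the most widely used of these markers, was at 158 ± 16.8 and 146 ± 13.6 FPKM (SD, n = 12). Of 8 smooth muscle markers, *Tagln* (1.32) and *Cnn1* (1.02) rose and 0 fell, with sums of 156 to 347 against 142 to 282 FPKM. Of 8 endothelial markers, *Pecam1* rose (0.37) and *Kdr* fell (-0.23), with sums of 395 to 609 against 419 to 521 FPKM. The part of these cells in the level of *Cox4i2* was not tested.

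Muscle forms of complex IV are also made in skeletal muscle and, for *Cox7a1* and *Cox8b*, in brown fat. Of 7 skeletal muscle markers tested, *Mybpc2* (1.35) and *Tnnt3* (0.80) rose and *Tnni2* (-0.61) and *Mylpf* (-0.22) fell, and the summed level was 19.3 to 38.9 FPKM in the hypertensive-LVH group and 8.05 to 27.0 FPKM in the control group. *Myh1*, *Myh2* and *Myh4* were not analysed here. Of 6 brown adipose markers tested, *Dio2* (0.63), *Cidea* (0.31) and *Fabp4* (0.29) rose and 0 fell. *Ucp1*, the defining gene of brown fat, had a mean of 0.0233 ± 0.0368 FPKM after ANG II and 0.383 ± 1.26 FPKM in controls (SD, n = 12). The SD of the controls exceeded their mean, so the *Ucp1* level was not even across them. The part of brown fat in the levels of *Cox7a1* and *Cox8b* was not tested. The listed genes summed to 597 to 1096 FPKM after ANG II against 520 to 817 FPKM in controls. Most of this sum was *Fabp4*, with a mean of 784 ± 160 FPKM after ANG II and 637 ± 106 FPKM in controls (SD, n = 12).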

How the data were processed

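The authors enriched mRNA with oligo(dT) and sequenced it in pairs of reads. Their processing notes name Bowtie2, HISAT and RSEM, and the genome build and annotation are not given in the sources used here. They deposited 1 FPKM value per gene and sample, and per the spacing of the values these were adjusted by gene within 4 sets, a step the methods do not name. In the model of the recovery, this step kept a group difference shared by the sets. The study used more samples than the 24 analysed here. Values below 0 were taken as 0. Expression as log2(FPKM + 1) was tested with limma 3.58.1 in R 4.3.3 with an intensity trend, for 14026 genes with a mean of at least 0.1 and with Benjamini-Hochberg adjustment. Tests were two-sided. Ratios used permutation tests with 100000 resamples. Values before the adjustment were recovered from steps of 0.01 FPKM and tested with all 160000 relabelings within the sets. Scripts were tested on simulated data. Python 3.11.15, numpy 2.4.6, pandas 2.3.3 and scipy 1.17.1 were used.

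The 10 genes and the gene lists were chosen with earlier results of these data known. Named are the 10 genes, up to 3 genes with the largest rise and fall of each list past the adjusted p, and any past both criteria. *Tnnt2*, *Myh6*, *Myl7*, *Rgs5*, *Ucp1* and overlapping genes are named as checks, as are the 5 genes most like *Cox7a1*, *Cox6a2*, *Cox8b* and *Cox4i2* as a description. The lists were other complex IV subunits, assembly, cytochrome c, and markers of cardiomyocytes, pericytes, smooth muscle, fibroblasts, macrophages, endothelium, brown fat and skeletal muscle. Alternatives were other scalings, pseudocounts, filters, tests, a replicate block, and leaving out samples or sets. Leaving out sets or control sample 3 before the adjustment was chosen after the data were seen. The study describes the samples of a group as biological replicates.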

Additional observations from a re-analysis of the deposited data

How the results depend on the processing

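The 7 genes that fell kept their direction and an adjusted p under 0.05 in all 13 alternatives of the test on the deposited values and in each of the 24 fits without 1 mouse, with the largest adjusted p at 0.0415 (*Cox6a2*). The number of the 10 genes past both criteria was 2. It was 4 under median-ratio scaling, 1 under quantile normalization, 4 without samples 1 to 3 and 5 without samples 7 to 9. When 1 mouse was left out it was 2 to 4 (4 without ANG II sample 7 or control sample 2), and with no fold change threshold it was 7. The number of all genes tested that were lower and past both criteria also changed. It was 197 in the main fit, 264 under median-ratio scaling and 275 under quantile normalization. Without samples 1 to 3 it was 266, without samples 7 to 9 it was 207, without ANG II sample 7 it was 210 and without control sample 2 it was 241. The cause of the changes among the 10 genes was not tested, but *Cox5b* and *Cox4i1* lie beside the limit. *Cox4i2* passed at -0.29 under quantile normalization and at -0.40 without samples 4 to 6. Before the adjustment it differed by -3.49 FPKM without samples 4 to 6, with an exact p of 0.0143 that was not adjusted over genes. In the deposited values *Cox4i2* was weaker at -0.15 without samples 7 to 9 (limma, adjusted p = 0.405) and -0.13 without samples 10 to 12 (adjusted p = 0.437).

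*Cox6a1* and *Cox8a*, which did not pass, changed sign. *Cox6a1* was -0.019 under median-ratio scaling, -0.057 without samples 7 to 9, -0.012 to 0.048 when 1 mouse was left out and, before the adjustment, -10.9 FPKM without samples 7 to 9. *Cox8a* was -0.027 under median-ratio scaling, -0.0074 without samples 4 to 6, -0.040 without samples 7 to 9, -0.016 to 0.049 when 1 mouse was left out and, before the adjustment, -4.34 FPKM, and there -9.40, -13.7 and -2.74 FPKM without samples 4 to 6, 7 to 9 and 10 to 12.

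Of the assembly genes, 9 fell without samples 4 to 6 and 10 without samples 10 to 12, from fits with fewer samples. In the same fits 1633 and 1325 of all genes tested fell, in place of 1769. Of the genes listed under cytochrome c, 1 fell without samples 4 to 6, also from a fit with fewer samples. Same-numbered samples deviated from their group means with correlations of -0.557 to -0.00109, and 0 of 12 pairs were over 0.1, which does not pair them. Same-numbered samples also lie in the same set, and the values had been adjusted within the sets before these correlations were taken. With the replicate number as a block, 10 assembly genes fell in place of 16, the count of all genes that fell was 1238 in place of 1769, the 7 genes still fell, the exact p of the 3 muscle ratios was 0.000488, and 0 samples correlated best with their own number. The ratio of *Cox4i2* to *Cox4i1* passed at 0.38 without samples 7 to 9 (permutation p = 0.0242) and was 0.03 without samples 4 to 6 (permutation p = 0.823), and when 1 mouse was left out it was 0.20 to 0.30, past the threshold in 6 of 24 fits. Of all genes tested, 2930 fell and 1922 rose under quantile normalization, in place of 1769 and 2928, and the median log2 fold change was -0.02 in place of 0.05. Ratios before the adjustment were not run, since the offsets of the sets are unknown. Without counts, precision at a single value is unknown, and the smallest p of the tests within sets was 1.25e-05.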
